A study of Mus musculus with 16 samples.

Results

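*Ltbp1* and the genes of the TGF-beta axis were examined in UMI RNA-seq of the mouse cortex at embryonic day 15.5. The set held 10 of the 51912 genes listed in the count files. It comprised the latent TGF-beta binding proteins *Ltbp1*, *Ltbp2*, *Ltbp3* and *Ltbp4*, the ligands *Tgfb1*, *Tgfb2* and *Tgfb3*, and the receptors *Tgfbr1*, *Tgfbr2* and *Tgfbr3*. *Ltbp1* was chosen by its values in the comparison of cKO with ctrl, in which it had the smallest p among the genes that were lower, and the other genes were taken for their role beside it.

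The cerebral cortex of 7 ctrl, 4 cKO and 4 dKO mice was sequenced, and the mice of all 3 groups were of both sexes and of mixed background. The cKO mice were *Knl1* fl/fl with the transgene *hGFAP-Cre*, which recombines in cortical NPCs and leaves lineages that enter the cortex from elsewhere, such as interneurons, with an intact allele. The dKO mice carried *Trp53* fl/fl in addition, so that *Knl1* and *Trp53* were deleted in the same lineage. Among ctrl, 5 mice had wild-type *Knl1* (2, 6, S1, S3 and T3) and 2 were heterozygous (T4 and T5), and the labels do not say whether they carried the transgene. The cKO mice were 5, 7, S2 and F3, and the dKO mice T2, T8, F1 and F7. Litter 1 held ctrl mice 2 and 6 with cKO mice 5 and 7. Litter 2 held ctrl mice S1 and S3 with cKO mouse S2, litter 3 ctrl mice T3, T4 and T5 with dKO mice T2 and T8, and litter 4 cKO mouse F3 with dKO mice F1 and F7 and no ctrl. Batch 1 of the libraries held 3 ctrl and 3 cKO mice, batch 2 ctrl mouse S1 only, and batch 3 the 3 ctrl mice of litter 3, cKO mouse F3 and all dKO mice.

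Totals per mouse were 399832 to 3266227 counts in ctrl, 4178461 to 8800987 in cKO and 552186 to 5396803 in dKO, so every cKO mouse was sequenced more deeply than every ctrl mouse. In the shallowest ctrl mouse, T3, 3 counts were worth 7.50 CPM (counts per 1e6 counts of a mouse, here before TMM scaling), and in the deepest mouse, S2, 0.341 CPM. These floors cover counting error only. The 2 libraries of mouse S2 were added together, because they differed by little more than sampling noise (chi-square per degree of freedom 1.14, and 3.56 to 27.4 in any other pair of cKO libraries). The counts cover whole genes, and those of the targeted genes overlapped between the groups. *Knl1* was at 48.7 to 80.0 CPM in ctrl, 50.004 to 80.4 in cKO and 33.4 to 58.2 in dKO, and *Trp53* at 15.6 to 47.0, 24.0 to 33.3 and 19.8 to 32.3 CPM, so these values do not check the labels. Markers of cortical excitatory neurons were present, led by *Bcl11b* at 535 to 912 CPM over all mice, whereas *Sox2*, a defining gene of apical progenitors, had no count in any mouse. The other 9 apical progenitor markers listed here were detected, and the study stained SOX2-positive progenitors in the cortex at this age. The lack of *Sox2* counts therefore cannot be read as absence of these cells or of *Sox2* RNA, and its cause was not tested.

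TGF-beta ligands are secreted as latent complexes, in which the mature dimer is held by its own propeptide, and the propeptide is linked to a latent TGF-beta binding protein that anchors the complex to fibrillin and fibronectin in the extracellular matrix. Release by integrins or proteases lets the ligand bind the type II receptor, encoded by *Tgfbr2*, which recruits and phosphorylates the type I receptor, encoded by *Tgfbr1*, and this in turn phosphorylates SMAD proteins. In the developing cortex, TGF-beta signalling is known for roles in progenitor proliferation, neuronal differentiation and the blood vessels.

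*Ltbp1* (ENSMUSG00000001870.15) lies on the plus strand of chromosome 17 of GRCm38, from 75005568 to 75392512. It has a pair of annotated RefSeq start sites, 173252 bases apart, which begin a longer and a shorter form of the protein. The counts are per gene and do not separate these forms. The 250 bases before each start (RefSeq, GRCm38.p6, plus strand) are shown for both, because either may contribute to the level described here. The SMAD box CAGAC, read on both strands (GTCTG on the other), is in capitals.
Ltbp1, upstream start, chr17:75005279-75005528: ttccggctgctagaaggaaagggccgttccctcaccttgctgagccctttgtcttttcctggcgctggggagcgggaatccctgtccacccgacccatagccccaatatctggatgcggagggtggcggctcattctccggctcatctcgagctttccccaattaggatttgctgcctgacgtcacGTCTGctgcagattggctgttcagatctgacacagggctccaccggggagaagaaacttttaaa
Ltbp1, downstream start, chr17:75178531-75178780: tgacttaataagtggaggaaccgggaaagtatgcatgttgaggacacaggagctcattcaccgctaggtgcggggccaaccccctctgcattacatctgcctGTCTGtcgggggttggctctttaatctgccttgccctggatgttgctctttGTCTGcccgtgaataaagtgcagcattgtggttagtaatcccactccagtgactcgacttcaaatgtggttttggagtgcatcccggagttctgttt
The upstream window held 1 such box, whose first base is 64 bases before the start, and the downstream window held 2, at 148 and 97 bases before it. A box of these letters was present in 42.2% of the 32851 RefSeq promoter windows of this length, so its presence does not set *Ltbp1* apart. The p53 half-site motif, also searched on both strands, did not occur in either window, and it occurred in 7.13% of all windows. The windows held 12 and 7 CpG dinucleotides, against a median of 6. Of 10 windows available for *Ltbp2*, *Ltbp3*, *Ltbp4*, *Tgfb1*, *Tgfb2*, *Tgfbr1* and *Tgfbr2*, 5 held a SMAD box, and 1, that of *Tgfbr2*, held a p53 half-site.

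*Ltbp1* was lower in cKO than in ctrl and lay between them in dKO. LTBP1 is the binding protein that anchors latent TGF-beta in the matrix in many tissues. In ctrl mice 2, 6, S3, S1, T3, T4 and T5 its level was 156, 204, 133, 67.9, 138, 129 and 133 CPM. In cKO mice 5, 7, S2 and F3 it was 55.1, 43.3, 70.2 and 46.6 CPM. In dKO mice T2, T8, F1 and F7 it was 103, 129, 92.1 and 72.4 CPM. All cKO mice were below 6 of the 7 ctrl mice, and the groups overlapped only through littermates S1 and S2. All 4 dKO mice were above all 4 cKO mice, and overlapped ctrl. Means were 137 ± 40.3 CPM in ctrl (SD, n = 7), 53.8 ± 12.02 in cKO (n = 4) and 99.1 ± 23.8 in dKO (n = 4). In order, ctrl was highest, then dKO and then cKO, and the neighbours ctrl and dKO did not separate. In bulk cortex, fewer cells of a type that expresses the gene and less RNA per cell cannot be told apart.

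**Figure D1:**
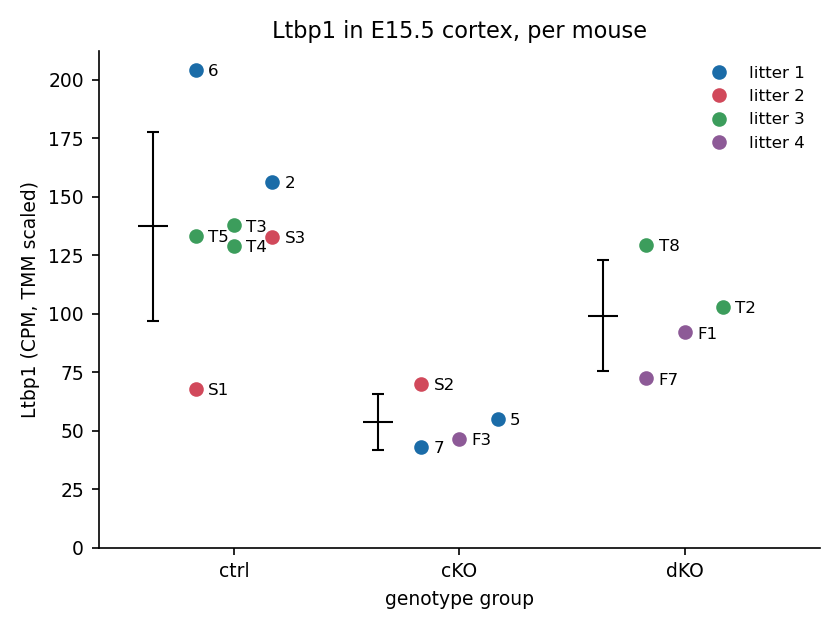
Level of *Ltbp1* in CPM (vertical axis) in each mouse of the 3 genotype groups (horizontal axis), coloured by litter and named. The cross and bars to the left of each group give its mean and SD. The 4 cKO mice sit between 43.3 and 70.2 CPM, below every ctrl mouse other than S1, and the dKO mice range from 72.4 to 129 CPM.

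The log fold change of *Ltbp1* in cKO versus ctrl was −1.36 on the log2 scale (SE 0.20), that is 39.0% of the ctrl level, and is given as a description, because the gene was chosen by this contrast. Within batch 1 (3 cKO and 3 ctrl mice) it was −1.53 (SE 0.21), and with litter as a covariate −1.31 (SE 0.13). In litter 1 the ctrl mice were at 156 and 204 CPM and the cKO mice at 43.3 and 55.1 CPM. In litter 2, cKO mouse S2 was at 70.2 CPM, above its ctrl littermate S1 (67.9 CPM, the only mouse of batch 2) and below S3 (133 CPM). In 21 alternative fits the log fold change lay between −1.55 and −1.21. In this comparison 0.16% of all listed genes had an FDR below 0.05, and *Ltbp1* was the only one of the 10 genes among them. None of the 10 genes had groups that did not overlap, against 1.2% of the genes with a mean of at least 1 CPM.

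The log fold change of *Ltbp1* between dKO and ctrl was −0.48 (SE 0.20, 95% interval −0.88 to −0.09, edgeR FDR of 1), in a comparison that shares the ctrl mice by which the gene was chosen. None of the 10 genes was among the 0.0501% of listed genes called at an FDR below 0.05, and none had groups that did not overlap, against 0.663% of genes. With litter as a covariate the log fold change was −0.16 (SE 0.21), and it then rests on litter 3, in which the ctrl mice were at 129 to 138 CPM and the dKO mice at 103 and 129 CPM. Within batch 3 it was −0.47 (SE 0.20).

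In cKO versus dKO the log fold change of *Ltbp1* was −0.83 (SE 0.20, 95% interval −1.23 to −0.43, edgeR FDR of 0.0796), and the cKO mice here are those by which it was chosen. It did not pass the threshold, and neither did the other 9 genes, against 0.052% of listed genes called. The FDR of *Ltbp1* fell below 0.05 in 7 of 16 alternative fits, and without mouse S2, F1 or F7 it was 0.00305, 0.0445 or 0.0107. Without mouse 5, 7, F3, T2 or T8 it rose to 0.344, 0.459, 0.24, 0.122 or 0.204. With litter as a covariate the log fold change was −0.79 (SE 0.22), and it then rests on litter 4. Batch 1 held 3 of the 4 cKO mice and batch 3 all dKO mice, so genotype and batch are largely confounded in this comparison. *Ltbp1* was the only one of the 10 genes whose cKO and dKO mice did not overlap, against 3.82% of the genes with a mean of at least 1 CPM. In litter 4, the only litter with both genotypes, the cKO mouse was at 46.6 CPM and the dKO mice were at 92.1 and 72.4 CPM.

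The other binding proteins differed in level and in how they compared between the groups. *Ltbp3*, whose product also carries latent TGF-beta, was at 25.2, 21.2, 28.2, 17.4, 11.7, 22.6 and 33.3 CPM in ctrl mice 2, 6, S3, S1, T3, T4 and T5. In cKO mice 5, 7, S2 and F3 it was at 12.4, 11.5, 17.6 and 12.5 CPM, and in dKO mice T2, T8, F1 and F7 at 28.2, 11.1, 19.0 and 14.9 CPM. The cKO mice lay at or below the lower part of the ctrl range, of which T3 rests on 5 counts, and the dKO mice spanned most of that range. The log fold change in cKO versus ctrl was −0.73 (SE 0.21, unadjusted p of 0.000568 and FDR of 0.161 by edgeR), so *Ltbp3* was not called. The FDR fell below 0.05 in 3 of 21 alternative fits. It was 0.00795 without cKO mouse S2, 0.0421 with the first S2 library alone and 0.0294 over the genes that pass a filter on low counts. It rose to 0.785 without mouse 5, 0.722 without mouse 7, 0.679 with wild-type ctrl mice only and 0.43 with litter as a covariate. In dKO versus ctrl and cKO versus dKO the log fold changes were −0.39 (SE 0.24) and −0.31 (SE 0.25), both with an edgeR FDR of 1.

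*Ltbp4*, whose product binds fibrillin microfibrils and assists elastic fibre assembly, was at 15.1, 23.7, 34.3, 21.7, 11.7, 27.3 and 20.01 CPM in ctrl mice 2, 6, S3, S1, T3, T4 and T5. In cKO mice 5, 7, S2 and F3 it was at 14.4, 15.5, 15.6 and 13.0 CPM. The dKO mice T2, T8, F1 and F7 had 14.9, 14.8, 13.9 and 17.9 CPM. Both mutant groups were within a narrow span at the low end of the ctrl values and overlapped each other. The log fold change was −0.72 in cKO versus ctrl (SE 0.20, unadjusted p of 0.000331 and FDR of 0.123 by edgeR) and −0.60 in dKO versus ctrl (SE 0.24, unadjusted p of 0.0129 and FDR of 1). The FDR in cKO versus ctrl was below 0.05 in 1 of 21 alternative fits. By edgeR it was 0.0140 over the genes that pass the filter on low counts, 0.62 without mouse 5 and 0.79 within batch 1. Between cKO and dKO the log fold change was −0.08 (95% interval −0.49 to 0.32). The difference between *Ltbp1* and *Ltbp4* in this respect was not tested.

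*Ltbp2*, which binds fibrillin but not latent TGF-beta, had at most 13 counts in a mouse and 10, 24 and 16 counts in all in ctrl, cKO and dKO, which is too few to compare. Per kilobase of exon, the 4 binding protein genes summed to 18.9 CPM per kb in ctrl (11.6 to 25.3), 8.90 in cKO (7.81 to 11.1) and 13.9 in dKO (11.3 to 15.6). *Ltbp1* made up 67.4% of this sum in ctrl, 56.2% in cKO and 66.3% in dKO. Its share ranged from 54.6% to 80.6% over ctrl mice, 51.8% to 59.1% over cKO mice and 59.8% to 77.5% over dKO mice. The shares of ctrl and cKO mice thus overlapped. Those of cKO and dKO mice did not, but narrowly, with 59.1% the highest in cKO and 59.8% the lowest in dKO. The cKO mice are those by which *Ltbp1* was chosen.

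Among the ligands, *Tgfb2* was the most abundant per length, and its groups overlapped. It was at 50.4, 52.9, 35.3, 23.4, 35.02, 30.1 and 22.2 CPM in ctrl mice 2, 6, S3, S1, T3, T4 and T5. In cKO mice 5, 7, S2 and F3 it was at 32.3, 32.8, 34.2 and 34.8 CPM, and in dKO mice T2, T8, F1 and F7 at 24.9, 54.5, 38.0 and 31.4 CPM. All cKO values fell inside the ctrl range. The log fold change was −0.13 in cKO versus ctrl (95% interval −0.51 to 0.24), 0.05 in dKO versus ctrl (−0.41 to 0.51) and −0.13 in cKO versus dKO (−0.49 to 0.23), each with an edgeR FDR of 1. Within batch 1 the 3 cKO mice (32.3 to 34.2 CPM) were below the 3 ctrl mice (35.3 to 52.9 CPM), with a log fold change of −0.46 (SE 0.20, unadjusted p of 0.0207 and FDR of 1 by edgeR). Adjusted for litter, the log fold change was −0.30 (SE 0.17) in cKO versus ctrl and 0.54 (SE 0.32) in dKO versus ctrl. *Tgfb2* made up 66.1%, 67.1% and 68.9% of the ligand sum per kilobase in ctrl, cKO and dKO.

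*Tgfb3* ranged from 0 in ctrl mouse T3, where 3 counts are 7.50 CPM, to 24.5 CPM in ctrl mouse T5, with a ctrl median of 7.598 CPM. It was at 5.91 to 11.4 CPM in cKO and 7.18 to 11.6 CPM in dKO, inside the ctrl range. The log fold changes were 0.01 in cKO versus ctrl (95% interval −0.56 to 0.57), −0.13 in dKO versus ctrl (−0.79 to 0.53) and 0.19 in cKO versus dKO (−0.36 to 0.74). *Tgfb3* overlaps *Ttll5* on the opposite strand, which had 4868 counts against 358. The strand setting of the counting is not given in the sources used here, so reads of a stretch that a member shares with a gene on the other strand are uncertain. *Tgfb1*, the ligand best known from immune cells and vessels, had at most 12 counts in a mouse and 16, 26 and 15 counts in all in ctrl, cKO and dKO, and was not compared.

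Among the receptors, *Tgfbr1*, the type I receptor gene, had the highest level per length of the 10 genes, at 20.4 CPM per kb in ctrl. It was at 107 to 171 CPM in ctrl with a median of 122, 114 to 144 CPM in cKO and 111 to 138 CPM in dKO. The groups overlapped throughout, with log fold changes of −0.09 in cKO versus ctrl (95% interval −0.37 to 0.18), −0.10 in dKO versus ctrl (−0.39 to 0.18) and 0.04 in cKO versus dKO (−0.23 to 0.31). Its share of the receptor sum per kilobase was 88.3%, 86.9% and 84.9%.

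*Tgfbr2*, the ligand-binding type II receptor gene, was at 1.68, 7.91, 5.63, 8.15, 11.7, 11.3 and 4.45 CPM in ctrl mice 2, 6, S3, S1, T3, T4 and T5. In cKO mice 5, 7, S2 and F3 it was at 14.02, 12.3, 9.10 and 10.5 CPM, and in dKO mice T2, T8, F1 and F7 at 8.29, 18.5, 9.96 and 11.3 CPM. The mutant mice lay in the upper part of the ctrl range or above it. Ctrl mice 2 and T5 rest on 1 and 2 counts. The log fold change was 0.59 in cKO versus ctrl (SE 0.26, unadjusted p of 0.0213 and FDR of 0.849 by edgeR) and 0.67 in dKO versus ctrl (SE 0.32, unadjusted p of 0.0321 and FDR of 1), so no change was called. Within batch 3 the dKO versus ctrl value was 0.29 (SE 0.46). *Tgfbr3*, encoding the co-receptor betaglycan, which presents TGF-beta2 to the type II receptor, ranged from 4.45 to 21.0 CPM in ctrl, 5.68 to 11.4 in cKO and 9.36 to 23.1 in dKO. Its log fold changes were −0.41 (SE 0.32), 0.00 (SE 0.37) and −0.34 (SE 0.32) in the comparisons of cKO with ctrl, dKO with ctrl and cKO with dKO.

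**Figure D2:**
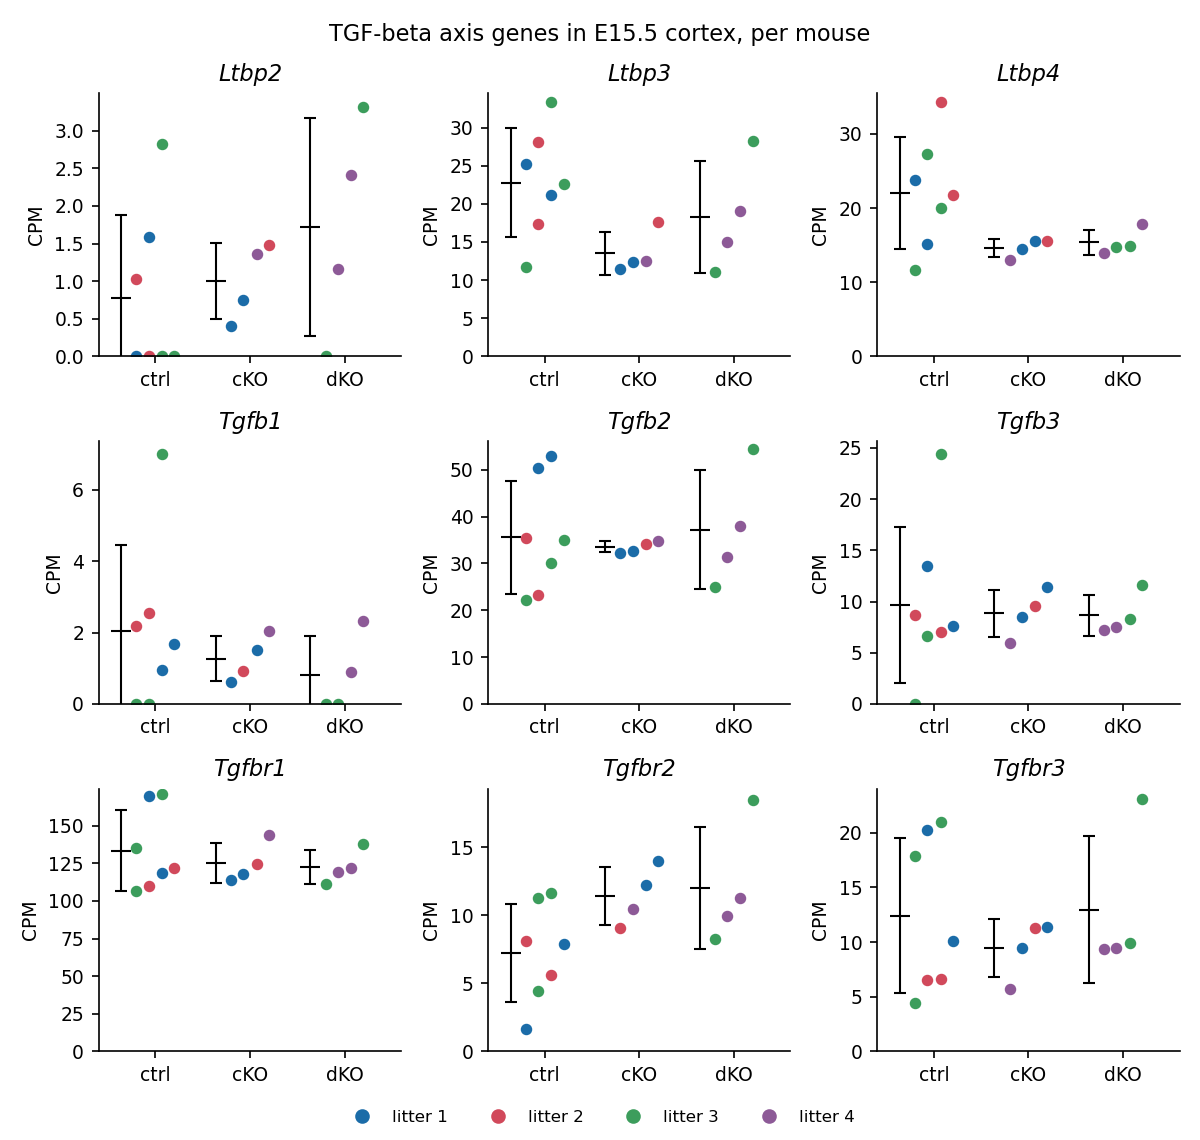
Level in CPM (vertical axes, each from 0) of the other 9 genes in each mouse of the 3 genotype groups, coloured by litter. The cross and bars to the left of each group give its mean and SD, with bars cut at 0. The cKO values of *Ltbp3* (11.5 to 17.6 CPM) and *Ltbp4* (13.0 to 15.6 CPM) lie low in the ctrl ranges, and those of *Tgfb2* lie inside the ctrl range.

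Apart from *Ltbp1*, 3 of 9 genes had an unadjusted p under 0.05 in cKO versus ctrl, with *Ltbp3* and *Ltbp4* lower and *Tgfbr2* higher, against 10.5% of the genes with a mean of at least 1 CPM. Of the 10 genes, *Ltbp1* and *Ltbp4* were lower and *Tgfbr2* was higher at that level in dKO versus ctrl, against 6.05% of genes. In cKO versus dKO, *Ltbp1* was the only one, against 5.18% of genes. The median log fold change of the 10 genes was −0.27, −0.12 and −0.11 in the 3 comparisons. That of all genes with a mean of at least 1 CPM was 0.03, 0.02 and 0.04. The medians of the 10 genes include *Ltbp1*, which was chosen by its low values in cKO versus ctrl. They also include *Ltbp2* and *Tgfb1*, whose counts were too few to compare. The comparisons share mice and are not independent of each other.

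**Figure D3:**
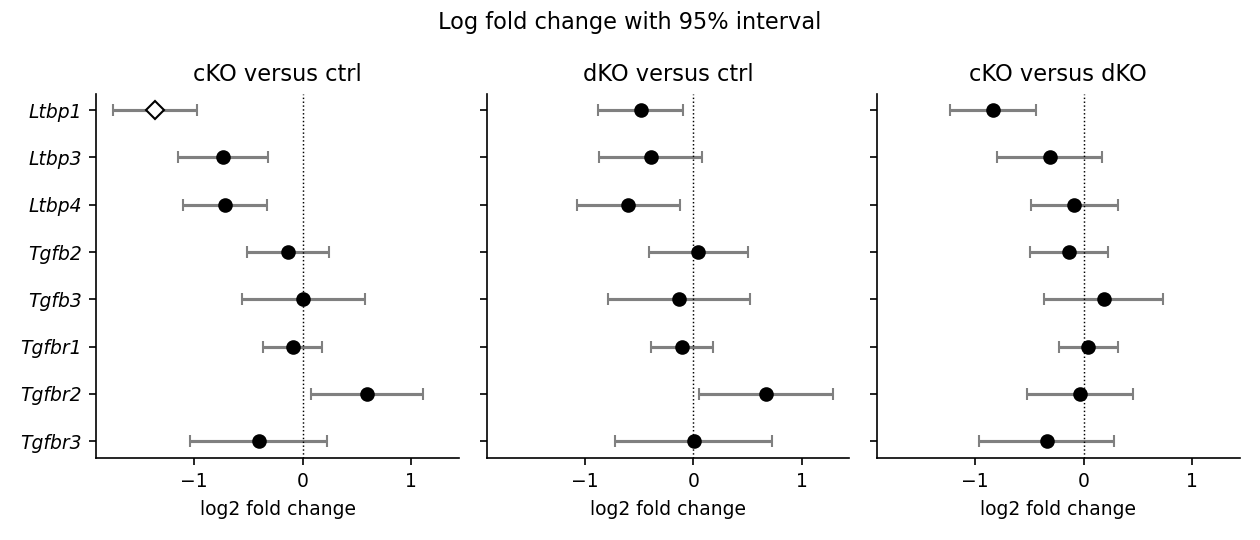
Log2 fold change (horizontal axes) of the 8 genes with more than 15 counts in some mouse, for the 3 comparisons. Points are edgeR estimates, bars 95% intervals, and the open diamond marks *Ltbp1* in the comparison by which it was chosen. *Ltbp3* and *Ltbp4* lie at −0.73 and −0.72 in cKO versus ctrl, and the intervals of *Tgfb2*, *Tgfb3*, *Tgfbr1* and *Tgfbr3* span 0 in all 3 comparisons.

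The wider pathway was described with lists of genes for each step, and none of their genes was called by edgeR at an FDR below 0.05 in any of the 3 comparisons. The genes named below by an unadjusted p under 0.05 were chosen after their values were seen. Of all genes with a mean of at least 1 CPM, 10.5% reached that level in cKO versus ctrl. The share was 6.05% in dKO versus ctrl and 5.18% in cKO versus dKO. Of 12 genes of TGF-beta latency and activation with a mean of at least 1 CPM, 1 was lower at that level in cKO versus ctrl, the membrane protease gene *Mmp14* (−0.53, SE 0.19). The list was led in level by the integrin gene *Itgb1*, at 102 to 156 CPM in ctrl and 95.01 to 116 CPM in cKO. *Itgb8*, a subunit of the integrin that releases TGF-beta in the developing brain, was at 73.2 ± 7.57 CPM in cKO, 65.8 ± 15.3 in ctrl and 60.0 ± 7.02 in dKO. Of 11 genes of the fibrillin and elastic fibre matrix, 1 was lower, the microfibril gene *Mfap4* (−1.22, SE 0.34), which also stands in the intermediate progenitor list. *Fn1*, encoding fibronectin, led this list with 84.3 to 101 CPM in cKO, inside the 67.3 to 124 CPM of ctrl.

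Of 15 genes of SMAD signalling, 4 were lower in cKO versus ctrl at an unadjusted p under 0.05 and none was higher, against 675 lower and 836 higher of the 14328 genes with a mean of at least 1 CPM (10.5% in both directions). These were *Smad6*, which inhibits SMAD signalling and chiefly that of BMPs (−0.88, SE 0.24, edgeR FDR of 0.108), the SMAD corepressor genes *Tgif1* (−0.82, SE 0.40) and *Tgif2* (−0.48, SE 0.23), and the feedback inhibitor *Pmepa1* (−0.28, SE 0.14). *Smad6* was at 20.5 ± 5.55 CPM in ctrl, 10.8 ± 3.47 in cKO and 15.4 ± 1.84 in dKO. *Trim33*, which acts on SMAD4 complexes, had the highest level in the list, at 180 to 245 CPM in ctrl and 206 to 242 CPM in cKO. No gene of this list had an unadjusted p under 0.05 in the other 2 comparisons. Of 11 TGF-beta target genes, 5 were lower in cKO versus ctrl and none was higher, beside the same 675 and 836 of 14328 genes. They were *Pmepa1* and *Tgif1*, already counted in the SMAD list, and the collagen genes *Col1a1*, *Col1a2* and *Col3a1*, also markers of meningeal fibroblasts. In ctrl these collagen genes varied widely between mice, at 4.95 ± 8.31, 2.90 ± 4.46 and 11.15 ± 17.76 CPM. *Pmepa1*, the most abundant of the 5 lower genes, was at 107 ± 22.3 CPM in ctrl, 90.5 ± 7.58 in cKO and 107 ± 17.2 in dKO.

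Of 6 co-receptors and antagonists with a mean of at least 1 CPM, led by the matrix proteoglycan gene *Bgn* at 4.89 to 25.7 CPM in ctrl and 5.69 to 7.395 CPM in cKO, none had an unadjusted p under 0.05 in cKO versus ctrl. In the activin and BMP branch of 19 genes, the activin subunit gene *Inhba* was higher in cKO versus ctrl (0.86, SE 0.37), and the subunit gene *Inhbb* (−0.58, SE 0.23) and the antagonist gene *Fst* (−0.80, SE 0.37) were lower, at an unadjusted p under 0.05. These stand beside 10.5% of all genes with a mean of at least 1 CPM. *Inhbb* was at 19.7 ± 6.04 CPM in ctrl, 12.3 ± 2.94 in cKO and 21.8 ± 7.93 in dKO, and in cKO versus dKO its edgeR FDR was 0.620. *Bmpr2*, the BMP type II receptor gene, led this list in level and was at 331 to 385 CPM in ctrl, 356 to 388 in cKO and 290 to 371 in dKO. Among the genes of these lists with a mean of at least 1 CPM, *Mfap4* was the only gene with an unadjusted p under 0.05 in dKO versus ctrl. Between cKO and dKO, *Itgb8* was higher in cKO at that level, and *Col1a1*, *Col1a2*, *Col3a1*, *Inhbb* and *Bmp6* were lower, under the same limit on the mean.

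Genes from several lists of cell type markers were also called in cKO versus ctrl. The summed level of 9 intermediate progenitor markers, all detected, was 470 to 582 CPM in ctrl, 359 to 522 in cKO and 388 to 492.5 in dKO. All 9 log fold changes were below 0 in cKO versus ctrl, against 6387 of the 14328 genes with a mean of at least 1 CPM. The most abundant of the 9 markers was the neuronal RNA-binding protein gene *Elavl4*. It was at 277 to 345 CPM in ctrl, 251 to 319 in cKO and 230 to 277 in dKO. In the mean of each group, *Elavl4* was above all the other markers together. Of these, *Eomes* (−1.13, SE 0.18, edgeR FDR of 5.06e-06) and *Neurog2* (−1.19, SE 0.25, edgeR FDR of 0.00564) fell, both transcription factors of neurogenic progenitors. *Eomes* was at 73.6 ± 16.4 CPM in ctrl, 35.1 ± 9.48 in cKO and 53.6 ± 13.2 in dKO. The sum of 10 interneuron markers was 2385 to 3133 CPM in ctrl, 3374 to 4931 in cKO and 2478 to 3192 in dKO, so cKO did not overlap the other groups. The sum is led by *Erbb4*, at 1425 to 1997 CPM in ctrl, 2162 to 3419 in cKO and 1565 to 1891 in dKO. Taken singly, 2 of the 10 markers had cKO and ctrl mice that did not overlap. Of all genes with a mean of at least 1 CPM, 1.2% did not overlap. All 10 markers were above 0 in cKO versus ctrl, against 7941 of the 14328 genes with that mean. *Gad1* (0.56, SE 0.14, edgeR FDR of 0.0408), encoding a GABA-synthesizing enzyme, and *Erbb4* (0.56, SE 0.14, edgeR FDR of 0.0361), a neuregulin receptor gene, rose. Of 9 detected apical progenitor markers, led by *Ptprz1*, 8 had log fold changes below 0, though the sum overlapped (1070 to 1549 CPM in ctrl, 1187 to 1281 in cKO and 1046 to 1259 in dKO). The marker above 0 was *Ptprz1* itself (0.11, SE 0.12), at 688 ± 92.8 CPM in ctrl and 751 ± 52.1 in cKO. By edgeR, 4 of the 9 were lower at an unadjusted p under 0.05. Among the 14328 genes with a mean of at least 1 CPM, 6387 were below 0 and 675 were lower at that level.

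The sum of 10 meningeal fibroblast markers, led by *Islr*, was 15.4 to 124 CPM in ctrl, 20.004 to 30.7 in cKO and 11.6 to 129 in dKO. Of the 8 with a mean of at least 1 CPM, 7 were below 0 in cKO versus ctrl, with a median of −1.57. Of all 14328 genes with that mean, 6387 were below 0 and 7941 above 0. *Aldh1a2*, the retinoic acid synthesis gene of the meninges, fell (−4.31, SE 1.61, edgeR FDR of 0.0408) from 2.41 ± 3.15 CPM in ctrl. The 3 mice with the highest sums were dKO mouse T8 at 129 CPM and ctrl mice T3 and T4 at 124 and 64.9 CPM. *Ttr*, the defining choroid plexus gene, fell in cKO versus ctrl (−5.61, SE 1.03, edgeR FDR of 0.00652) and was lower in cKO than in dKO (−5.02, SE 0.88, edgeR FDR of 0.000404), and the sum of its list was 11.3 to 84.5 CPM in ctrl, 11.6 to 14.6 in cKO and 14.6 to 41.4 in dKO. The sums of endothelial markers, led by *Flt1*, and of mural markers, led by *Notch3*, overlapped between cKO and ctrl. The endothelial gene *Slco1a4* was called lower in cKO versus ctrl (edgeR FDR of 0.00974), with no count in any cKO mouse and 1.86 ± 2.36 CPM in ctrl. In ctrl mice 3 counts were worth 0.919 to 7.50 CPM before TMM scaling, so *Slco1a4* and *Aldh1a2* lay near the floor. Of the 10 endothelial markers, 6 had log fold changes above 0 and 4 below 0 in this comparison, with a median of 0.05. Sums of excitatory neuron and microglia markers overlapped as well, with *Cx3cr1* leading the latter and *Itgam* at 0 in every mouse. Of 8 microglia markers with a mean of at least 1 CPM, 7 were above 0 and 1 below 0 in cKO versus ctrl. By edgeR, 2 of the 8 were higher at an unadjusted p under 0.05, beside 836 of the 14328 genes, and none was called. The part of these cell types in the *Ltbp1* result was not tested.

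**Figure D4:**
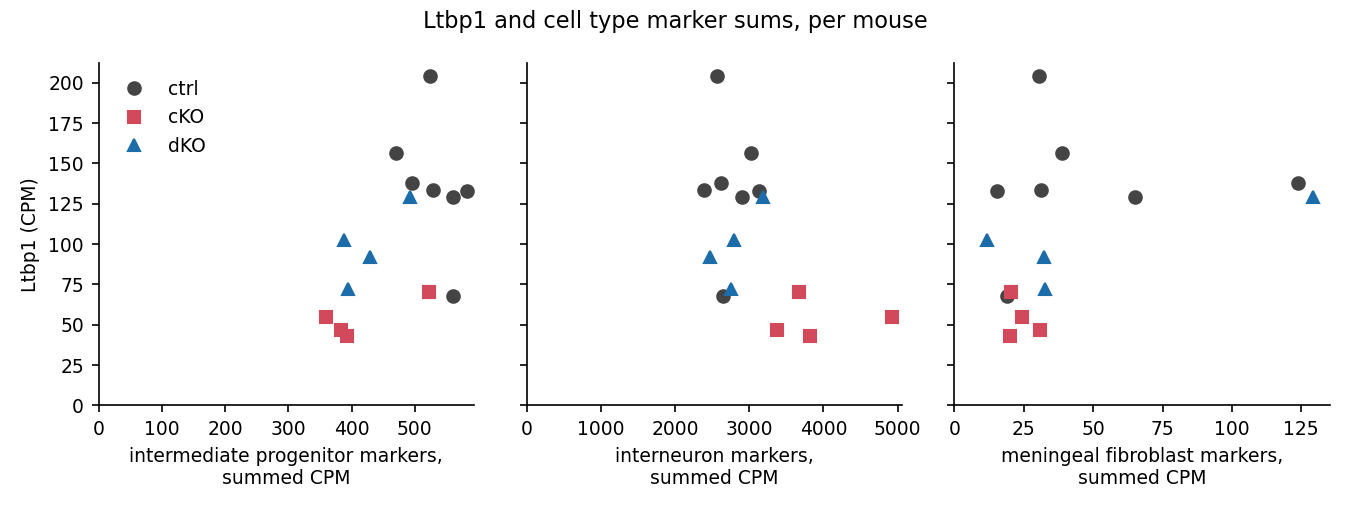
Level of *Ltbp1* in CPM (vertical axis) against the summed CPM of intermediate progenitor, interneuron and meningeal fibroblast markers (horizontal axes, from 0) in each mouse. Circles are ctrl, squares cKO and triangles dKO mice. The cKO mice have interneuron sums of 3374 to 4931 CPM, above all other mice, and 3 of them have intermediate progenitor sums of 359 to 393 CPM.

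The genes whose levels were most like that of *Ltbp1* were found by Pearson's r over log2 CPM of the 15 mice, among 9177 genes with a mean of at least 10 CPM. As *Ltbp1* was chosen for its group difference, genes with the same group difference rank high, and the points share depth and library, so r is a description. The 5 genes were *Nfix* (r of 0.907, Spearman's rho of 0.793), a transcription factor gene of neural progenitors, the metalloprotease genes *Adamts19* (0.897 and 0.861) and *Adamts6* (0.873 and 0.818), the tetraspanin gene *Tspan18* (0.885 and 0.821) and the basement membrane collagen gene *Col4a6* (0.873 and 0.839). Without the 2 mice farthest from the median of *Ltbp1*, F3 and 7, r was 0.914 for *Nfix* and 0.790 to 0.863 for the other 4. With each value centred on its group mean, r was 0.841 for *Nfix*, which again ranked first, and 0.702 to 0.808 for the other 4.

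*Nfix* was at 400 to 957 CPM in ctrl, 398 to 439 CPM in cKO and 385 to 643 CPM in dKO. Its lowest ctrl mouse was S1, and its lowest dKO mouse was F7, as for *Ltbp1*. Of the TGF-beta axis genes with a mean of at least 10 CPM, *Ltbp3* had the highest r with *Ltbp1* (0.547, rank 248), followed by *Tgfbr3* (0.420), *Tgfb2* (0.383), *Ltbp4* (0.371) and *Tgfbr1* (0.188). After centring on the group means, *Tgfb2* was the highest of them (0.650, rank 52) and *Ltbp4* the lowest (−0.09).

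**Figure D5:**
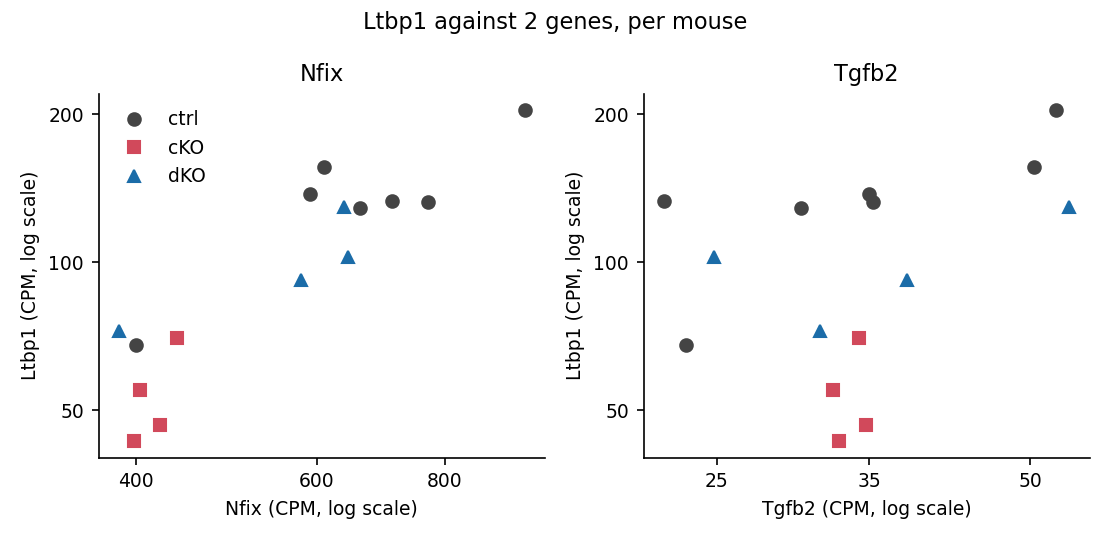
Level of *Ltbp1* against those of *Nfix* and *Tgfb2* in each mouse, in CPM on log axes. Circles are ctrl, squares cKO and triangles dKO mice. *Nfix* has r of 0.907 with *Ltbp1* over the 15 mice, and *Tgfb2* has r of 0.383, with the cKO mice at one level of *Tgfb2* (32.3 to 34.8 CPM).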

How the data were processed

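RNA-seq libraries were made from E15.5 cortex by Click-seq with UMIs, 16 libraries of 15 mice. The values deposited are counts, whole numbers of deduplicated reads per gene without normalization. Per the submitters' processing notes and the methods, the authors trimmed reads with cutadapt 1.13, aligned them to GRCm38/mm10 with STAR 2.5.2a, removed PCR copies with UMI-tools 0.5.3 and counted with HTSeq 0.6.1p1 in intersection-nonempty mode. Groups, litters and batches were taken from the labels. Symbols came from GENCODE vM21 (51633 of 51912 identifiers).

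Each comparison was fitted with edgeR 4.0.16 in R 4.3.3 on the counts of its own groups over all listed genes (TMM, estimateDisp, glmFit and glmLRT), and a gene was called at an FDR below 0.05 (Benjamini–Hochberg). The fit was tested on simulated data. CPM values use TMM over 15 mice, and exon lengths are unions of GENCODE exons. Log2 CPM for correlations had a prior count of 2. The 5 summary lines of each count file were left out. Alternatives were edgeR's quasi-likelihood test, DESeq2 1.42.0, RLE size factors, filterByExpr, batch or litter as a covariate, wild-type ctrl mice only, 1 batch only, each S2 library alone and each mouse left out. *Ltbp2* and *Tgfb1*, with at most 15 counts in every mouse, were left out of them.

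The genes and lists were chosen with earlier results of these data known. Named are all 10 genes of the axis, list genes called in any comparison, the most abundant gene of each list and the 5 genes most like *Ltbp1*. Depth was confounded with group, since all cKO mice were deeper than all ctrl mice.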

Additional observations from a re-analysis of the deposited data

Results flagged for a closer look

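Over 24 sets of values (8 genes in 3 groups), the highest or lowest mouse was compared with the rest of its group, and 2 mice stood apart by Dixon's criterion, which chance alone meets in about 1 in 20 groups. *Ltbp3* in cKO mouse S2 was at 17.6 CPM, against 11.5 to 12.5 CPM in the other cKO mice. Without S2, *Ltbp3* in cKO versus ctrl had a log fold change of −0.91 and an edgeR FDR of 0.00795. *Tgfbr3* in dKO mouse T8 was at 23.1 CPM, against 9.36 to 9.95 CPM in the other dKO mice. T8 also had the highest *Tgfb2* (54.5 CPM), *Tgfbr2* (18.5 CPM) and summed meningeal fibroblast markers (129 CPM) of the dKO mice. The part of any cause was not tested.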

How the results depend on the processing

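Of 447 log fold changes of the 8 genes under alternatives, 393 kept their direction and side of the threshold, 12 newly passed it and 42 changed sign, and the cause was not tested. The number of the 10 genes called in cKO versus ctrl went from 1 to 3 with filterByExpr and to 2 with the first S2 library alone, and leaving out a mouse gave 1 to 2, the 2 being without S2. In dKO versus ctrl it went from 0 to 1 (*Ltbp1*, FDR of 0.0443) with the quasi-likelihood test, and leaving out a mouse gave 0 to 0. In cKO versus dKO it went from 0 to 1 (*Ltbp1*) with the quasi-likelihood test, RLE size factors, filterByExpr or the second S2 library alone, and leaving out a mouse gave 0 to 1. The number of all genes called ranged from 13 to 373 over the settings in cKO versus ctrl (83 as reported), 4 to 113 in dKO versus ctrl (26) and 1 to 184 in cKO versus dKO (27). None of the values that changed sign was called, before or after the change. In cKO versus ctrl, *Tgfb3* was −0.084 with DESeq2, −0.035 with RLE size factors, −0.042 with filterByExpr, −0.10 with batch as a covariate and −0.028 with the second S2 library alone. In dKO versus ctrl, *Tgfbr3* was −0.052 with the quasi-likelihood test, −0.0027 with RLE size factors, −0.26 with batch as a covariate and −0.29 in batch 3, *Tgfb2* was −0.073 with wild-type ctrl mice only, and *Tgfb3* was 0.034 with wild-type ctrl mice only and 0.014 with litter as a covariate. In cKO versus dKO, *Tgfbr1* was −0.0056 with DESeq2, −0.0072 with RLE size factors and −0.015 with filterByExpr, *Tgfb2* was 0.029 and *Tgfb3* −0.29 with litter as a covariate, *Tgfb3* was −0.42 in batch 3, and *Tgfbr2* was 0.023 with the second S2 library alone. Leaving out a mouse gave ranges that crossed 0. In cKO versus ctrl they were −0.25 to 0.053 for *Tgfb2* and −0.13 to 0.24 for *Tgfb3*. In dKO versus ctrl they were −0.16 to 0.22 for *Tgfb2*, −0.24 to 0.062 for *Tgfb3* and −0.39 to 0.25 for *Tgfbr3*. In cKO versus dKO they were −0.17 to 0.057 for *Ltbp4*, −0.24 to 0.034 for *Tgfb2*, −0.028 to 0.093 for *Tgfbr1*, −0.16 to 0.14 for *Tgfbr2* and −0.51 to 0.027 for *Tgfbr3*. *Tgfb3* in dKO versus ctrl did not pass filterByExpr. Before TMM scaling, 3 counts were worth 5.22, 7.50 and 7.19 CPM in ctrl mice 2, T3 and T5 and 5.43 in dKO mouse T2. Fewer than 3 counts were behind *Tgfb3* in T3 (0), *Tgfbr2* in mice 2 and T5 (1 and 2) and *Tgfbr3* in T5 (2). In T3 and T2, *Tgfbr2* had 5 counts each and *Tgfbr3* had 9 and 6, and *Tgfb3* had 7 in T2. All these levels are poorly resolved. Centring on the group means lowered r with *Ltbp1* to 0.747 for *Adamts19*, 0.705 for *Tspan18* and 0.702 for *Col4a6*.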
